A study of Homo sapiens with 60 samples.

Results

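The genes described here are conjugation enzymes and drug efflux transporters, chosen by symbol from the Ensembl identifiers of the deposited table: the UDP-glucuronosyltransferases UGT1A6 and UGT1A10, the epoxide hydrolase EPHX1, the glutathione transferases GSTP1 and MGST1, and the ATP-binding cassette exporters ABCC1, ABCC2, ABCC3, ABCB1 and ABCG2. They are 10 of the 60675 genes of the table, the rule for choosing them uses symbols and no measured value, and all 10 passed the filter on low counts. RNA was sequenced from HT29, a human colorectal adenocarcinoma cell line, after 24 h with a water extract of a tonifying herbal medicine. The single plants were Cinnamomi Cortex, Cnidii Rhizoma, Rehmanniae Radix Preparata, Astragali Radix and Paeoniae Radix, and the formulae were Sagunja-tang and Samul-tang, each at 20, 100 and 500 µg/mL. Every extract and dose had 3 libraries except Paeoniae Radix, with 1 library per dose, and 3 libraries of vehicle (DMSO) served all of them. The labels give the DMSO as 0.1% and the design text as 2%, which could not be settled. Samul-tang traditionally contains Cnidii Rhizoma, Rehmanniae Radix and Paeoniae Radix among its plants, which is background and not a statement of the labels.

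Glucuronosyltransferases attach glucuronic acid, and glutathione transferases attach glutathione, to lipophilic compounds, and epoxide hydrolase adds water to reactive epoxides. The products are water-soluble, and ABC exporters use ATP to pump them, or the unchanged drug, out of the cell. In intestinal epithelium the enzymes and the exporters of the apical membrane limit how much of a swallowed compound enters the blood. Many genes of these enzymes and of ABC exporters are known targets of the transcription factors NRF2, AhR and PXR.

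The UGT1A genes need a caution before any value. UGT1A6 (ENSG00000167165, chromosome 2, 233691607 to 233773300, plus strand, GRCh38) and UGT1A10 (ENSG00000242515, chromosome 2, 233636454 to 233773305, plus strand) lie in 1 locus in which each gene has its own first exon, spliced to a common set of later exons. In GENCODE 29 the main transcripts have 5 exons, and exons 2 to 4 were the same in UGT1A6, UGT1A10 and UGT1A8. Reads that lie wholly in the shared exons can only be divided among these genes by estimation, while reads over the first exon or its junction to exon 2 tell the genes apart only where the first exons differ. The junctions below are shown because they carry that distinction, 36 bases of the first exon in lower case and 24 bases of exon 2 (chr2:233767034-233767165) in capitals, on the plus strand.
UGT1A6: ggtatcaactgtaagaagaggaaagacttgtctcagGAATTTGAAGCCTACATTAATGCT
UGT1A10: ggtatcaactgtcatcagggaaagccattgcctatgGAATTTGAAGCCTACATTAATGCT
UGT1A8: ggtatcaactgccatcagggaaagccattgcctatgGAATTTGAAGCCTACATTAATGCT
The first exons (chr2:233692866-233693865 for UGT1A6, chr2:233636454-233637377 for UGT1A10 and chr2:233617645-233618562 for UGT1A8) were 61.2% identical between UGT1A6 and UGT1A10 and 94.4% identical between UGT1A8 and UGT1A10. UGT1A6 can thus be told apart from UGT1A10 along its first exon, whereas UGT1A10 and UGT1A8 are near copies there and the division between them is uncertain.

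Library totals ran between 20459346 and 36253747 counts over the 60 libraries, and the spread between libraries of 1 group was small (common biological coefficient of variation 0.0571). The labels do not say that the 3 libraries of a group came from separate cultures, and the p-values therefore rest on a spread between libraries that may be technical. The replicated libraries are described in 2 sets, which the labels do not name. The division was taken from how libraries separated in earlier results of these data and drawn along blocks of the sample codes, so it rests on expression: set 2 holds both formulae and, of Astragali Radix and of Cinnamomi Cortex, replicates 2 and 3, and set 1 holds the other replicated libraries. On the first principal component (22.6% of the variance) set 2 lay between 3.24 and 18.7 and set 1 between -22.0 and -4.18, except that replicate 2 of Cinnamomi Cortex 500, kept in set 2 with the rest of its block, lay at -11.7. What the sets stand for was not tested. Vehicle libraries all belong to set 1, so comparisons of the formulae with vehicle run across the sets. Vehicle also has a run code, the first part of the sample code, that no extract has. Every comparison with vehicle therefore runs across run codes, and their part was not tested. In 500 against 20 µg/mL of an extract both doses have the same run code and the same sets. For Cinnamomi Cortex this holds only as the sets were drawn, since replicate 2 at 500 µg/mL lay with set 1. A term for library set was fitted as an alternative, and it rests on Cinnamomi Cortex and Astragali Radix, the extracts with libraries in both sets. All 10 colon epithelium markers passed the filter and summed to between 10811 and 13629 CPM, the count scaled to library size, in treated libraries, against 11150 to 11646 CPM in vehicle. Most of that sum was the keratins KRT8 and KRT18, with medians of 6159 and 3628 CPM. CDX2, CDH17 and CEACAM5 had medians of 4.51, 4.52 and 7.84 CPM, and the remaining markers 172 to 529 CPM. Fibroblast markers summed to at most 2.78 CPM in treated and 2.38 CPM in vehicle libraries, with 2 of 7 tested, and leukocyte markers to at most 14.7 CPM in treated and 13.6 CPM in vehicle libraries, with 3 of 6 tested. Of 8 hepatocyte markers 3 were tested, and their sum (321 to 512 CPM in treated, 441 to 477 CPM in vehicle libraries) was nearly all SERPINA1, while ALB had a median of 0 CPM.

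Levels were divided by the merged length of all exons annotated for a gene, 1911 bases for GSTP1 and 7440 for MGST1. This can exceed the length of the transcript in use, so the order below depends on it. Per kilobase of exon so counted, GSTP1 was the most abundant member, at 287 CPM per kb over the 57 libraries of replicated groups, and UGT1A10 followed at 125 CPM per kb. ABCC3 had 53.6, EPHX1 48.6, MGST1 26.0, ABCG2 17.3, ABCC1 14.6 and UGT1A6 10.5 CPM per kb. The exporters ABCC2 and ABCB1 were scarce, at 0.225 and 0.107 CPM per kb. ABCB1 (P-glycoprotein) had 7 to 26 counts per library and ABCC2 22 to 121, so a change of ABCB1 could be seen only if it was large.

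**Figure D1:**
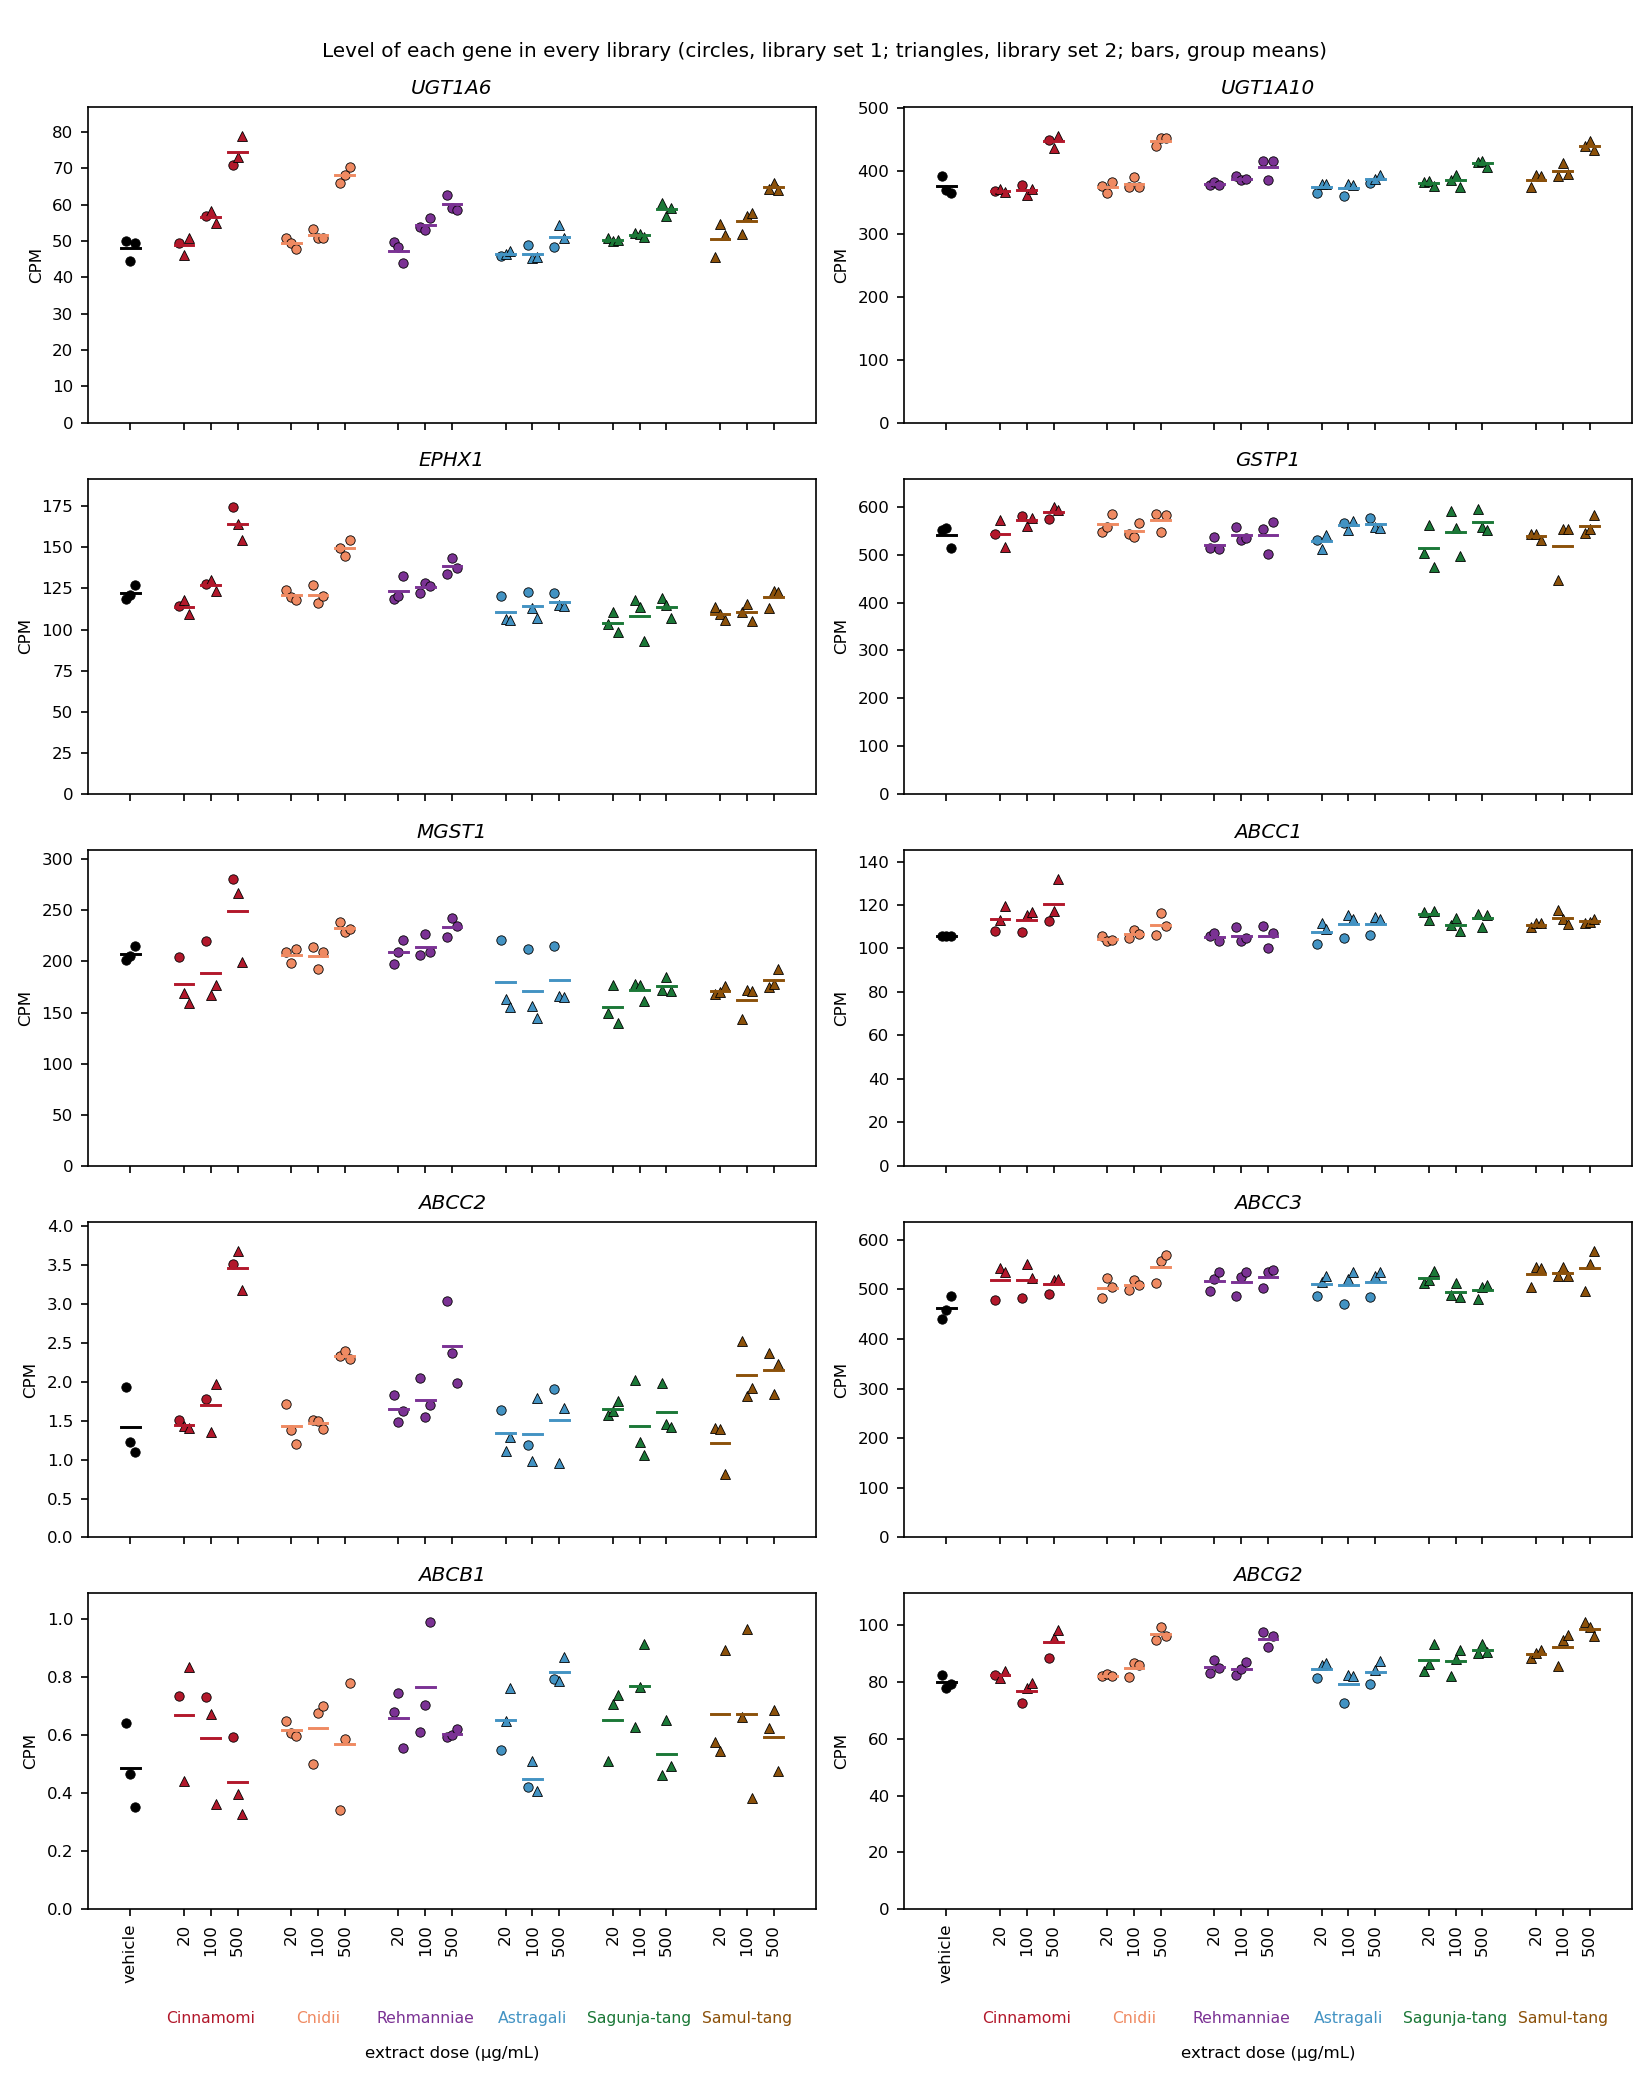
CPM of each of the 10 genes (vertical axis, starting at 0) in every library of the vehicle and of 6 extracts at 20, 100 and 500 µg/mL; circles are library set 1, triangles set 2, and bars group means. UGT1A6 at 500 µg/mL of Cinnamomi Cortex (71.0 to 79.0 CPM) lies above every vehicle library (44.6 to 49.99 CPM), and MGST1 is lower in set 2 than in set 1 within Astragali Radix.

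UGT1A6, whose enzyme prefers small planar phenols, rose against vehicle in 5 of 6 replicated extracts at 500 µg/mL, by log2 fold changes of 0.29 to 0.63. UGT1A10, a glucuronosyltransferase of the gut that is not made in liver, rose in 4 of 6, by 0.13 to 0.25, of which Sagunja-tang (0.13, SE 0.03, edgeR adjusted p = 0.00304) was not called with a term for library set (0.11, adjusted p = 0.0828) or without the filter on low counts (adjusted p = 0.109). With Astragali Radix neither was called.

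In Cinnamomi Cortex at 500 µg/mL UGT1A6 stood at 71.0, 73.2 and 79.0 CPM, against 49.99, 44.6 and 49.3 CPM in vehicle. These libraries did not overlap, and the log2 fold change was 0.63 (SE 0.05, edgeR quasi-likelihood test, adjusted p = 1.75e-12). Over the doses of Cinnamomi Cortex the values were 49.4, 46.2 and 50.9 CPM at 20, 56.9, 58.1 and 55.0 CPM at 100, and 71.0 to 79.0 CPM at 500 µg/mL. All 3 doses therefore lay apart from one another, and the change at 500 against 20 µg/mL was 0.61 (SE 0.05, adjusted p = 7.15e-12). A gene's rise in such a bulk sample cannot be told apart from a larger share of cells that make it.

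Cnidii Rhizoma at 500 µg/mL had UGT1A6 at 66.0, 68.1 and 70.4 CPM, against 50.9, 49.5 and 47.8 CPM at 20 µg/mL, a log2 fold change of 0.46 (SE 0.05, edgeR adjusted p = 1.03e-07). Samul-tang at 500 µg/mL had 64.4, 66.0 and 64.0 CPM, against 45.5, 54.5 and 51.6 CPM at 20 µg/mL, a change of 0.36 (SE 0.05, edgeR adjusted p = 5.76e-05). In Rehmanniae Radix Preparata the values were 62.8, 59.0 and 58.5 CPM at 500 µg/mL, against 49.8, 48.2 and 43.9 CPM at 20 µg/mL (0.34, SE 0.05, edgeR adjusted p = 0.000236). The 500 µg/mL libraries of each of these extracts lay wholly above their 20 µg/mL libraries. Sagunja-tang had 60.5, 56.8 and 59.1 CPM at 500 µg/mL, against 50.7, 49.9 and 50.4 CPM at 20 µg/mL. They did not overlap either, but the change of 0.22 (SE 0.05) had an unadjusted p of 0.000122 and an adjusted p of 0.0947 by edgeR, and was not called. Astragali Radix had 48.2, 54.3 and 50.8 CPM at 500 µg/mL, against 45.9, 46.5 and 47.1 CPM at 20 µg/mL, a difference of 0.14 (SE 0.05, edgeR adjusted p = 0.756).

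Ordered by mean, UGT1A6 was highest in Cinnamomi Cortex 500 (74.4 ± 4.1 CPM), then Cnidii Rhizoma 500 (68.1 ± 2.2), Samul-tang 500 (64.8 ± 1.1), Rehmanniae Radix Preparata 500 (60.1 ± 2.3), Sagunja-tang 500 (58.8 ± 1.8) and Cinnamomi Cortex 100 (56.7 ± 1.6), all SD with n = 3. Vehicle, at 48.0 ± 2.9 CPM (SD, n = 3), was 16th of 19 groups. Between neighbours in this order libraries were apart from Cinnamomi Cortex 500 to Cnidii Rhizoma 500 and from Samul-tang 500 to Rehmanniae Radix Preparata 500, and overlapped at the other steps named.

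UGT1A10 moved by less on the log2 scale but from a higher level. Cinnamomi Cortex at 500 µg/mL had 450.2, 437.3 and 456.3 CPM, against 367.6, 372.2 and 367.3 CPM at 20 µg/mL, a log2 fold change of 0.28 (SE 0.03, edgeR adjusted p = 7.06e-09). Cnidii Rhizoma had 439.7, 451.8 and 452.4 CPM at 500 µg/mL, against 376.2, 365.0 and 381.9 CPM at 20 µg/mL (0.26, SE 0.03, edgeR adjusted p = 5.79e-07). Samul-tang had 439.2, 447.4 and 434.2 CPM at 500 µg/mL, against 374.3, 393.4 and 391.6 CPM at 20 µg/mL (0.19, SE 0.03, edgeR adjusted p = 0.000594). Without the filter on low counts this Samul-tang change was not called (edgeR adjusted p = 0.0602). The 500 µg/mL libraries lay above the 20 µg/mL libraries in all 3 extracts, and the 3 extracts overlapped at 500 µg/mL. Rehmanniae Radix Preparata, at 405.8 ± 17.0 against 379.4 ± 3.0 CPM (SD, n = 3 each), and Sagunja-tang, at 412.2 ± 4.7 against 381.0 ± 4.3 CPM, missed the call at 500 against 20 µg/mL, with adjusted p of 0.3 and 0.183 by edgeR.

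Summing the counts of 9 UGT1A genes removes the division of shared reads, a check chosen after the data were seen. At 500 µg/mL against vehicle the summed feature rose with Cinnamomi Cortex (log2 fold change 0.27, SE 0.03), Cnidii Rhizoma (0.30, SE 0.03), Samul-tang (0.25, SE 0.03), Sagunja-tang (0.14, SE 0.03) and Rehmanniae Radix Preparata (0.14, SE 0.03), and the edgeR adjusted p lay between 3.19e-09 and 0.0111. With Astragali Radix it was 0.05 (SE 0.03, edgeR adjusted p = 0.313). The locus total was thus called in the same 5 extracts as UGT1A6, and Rehmanniae Radix Preparata, whose UGT1A10 change of 0.11 was not called (adjusted p = 0.107), was called for the sum. Most of the total was UGT1A10, at 447.9 of 644.7 CPM in Cinnamomi Cortex 500, where UGT1A6 had 74.4 CPM. The total therefore says little about UGT1A6 by itself.

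EPHX1 (ENSG00000143819, chromosome 1, 225810092 to 225845563, plus strand), the microsomal epoxide hydrolase, rose at 500 against 20 µg/mL in Cinnamomi Cortex and Cnidii Rhizoma. Cinnamomi Cortex had 174.2, 164.2 and 154.5 CPM at 500 µg/mL, against 114.4, 117.8 and 109.4 CPM at 20 µg/mL, a log2 fold change of 0.53 (SE 0.06, edgeR adjusted p = 1.49e-08). Cnidii Rhizoma had 149.3, 144.5 and 154.4 CPM, against 124.3, 120.0 and 118.0 CPM (0.31, SE 0.06, edgeR adjusted p = 0.00477). Both pairs of groups were separate. Without replicate 3 of Cnidii Rhizoma 500 the call of that extract was lost, with adjusted p of 0.0602 at 500 against 20 µg/mL and 0.057 against vehicle. Rehmanniae Radix Preparata had 134.0, 143.7 and 137.3 CPM at 500 µg/mL, all above its 118.3, 120.5 and 132.3 CPM at 20 µg/mL, but the 0.16 (SE 0.06) was not called (edgeR adjusted p = 0.419).

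At lower doses EPHX1 was below vehicle in a formula. Sagunja-tang had 103.3, 110.8 and 98.2 CPM at 20 µg/mL, against 118.6, 121.0 and 127.3 CPM in vehicle (log2 fold change -0.23, SE 0.06, edgeR adjusted p = 0.00957), and -0.18 at 100 µg/mL (SE 0.06, adjusted p = 0.043). Set 2 libraries had a lower EPHX1 as a whole, with a median of 113.2 CPM over treated libraries against 125.5 CPM in treated libraries of set 1. With a term for library set the Sagunja-tang change of EPHX1 was -0.13 (adjusted p = 0.539) at the low dose and -0.08 (adjusted p = 0.712) at the middle one, and neither was called.

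Of the glutathione transferases, GSTP1 (ENSG00000084207, chromosome 11, 67583595 to 67586656, plus strand), a cytosolic enzyme abundant in many tumour lines, was called in 0 of 39 comparisons by edgeR and in 0 by DESeq2, with 2 at an unadjusted p under 0.05. Its group means spanned 512.9 CPM in Sagunja-tang 20 to 588.5 CPM in Cinnamomi Cortex 500, with vehicle at 540.4 ± 22.7 CPM (SD, n = 3). Cinnamomi Cortex at 500 µg/mL had 573.8, 598.8 and 592.8 CPM, all above the vehicle libraries at 552.3, 554.7 and 514.2 CPM, with a log2 fold change of 0.12 (SE 0.06, edgeR adjusted p = 0.17).

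MGST1 (ENSG00000008394, chromosome 12, 16347142 to 16609259, plus strand), a membrane-bound glutathione transferase and peroxidase, differed between the library sets, with a median of 170.5 CPM over the treated libraries of set 2 and 214.7 CPM over those of set 1. Within Astragali Radix at 500 µg/mL it had 215.0 CPM in the library of set 1 and 166.2 and 165.2 CPM in those of set 2, and at 20 µg/mL 220.7 CPM in set 1 and 163.4 and 155.2 CPM in set 2. Cinnamomi Cortex at 500 µg/mL had 280.8 CPM in set 1 and 267.0 and 199.7 CPM in set 2, against 204.2 CPM in set 1 and 169.4 and 159.6 CPM in set 2 at 20 µg/mL. Within each set the Cinnamomi Cortex libraries at 500 µg/mL thus lay above those at 20 µg/mL, although the pooled groups overlapped. The library at 267.0 CPM is the replicate 2 that lay with set 1 on the first principal component, and values of MGST1 in Cinnamomi Cortex with a term for library set depend on where it is placed. If it belongs with set 1, the main comparisons of Cinnamomi Cortex 500 with its 20 µg/mL and with Astragali Radix are not balanced over the sets. This bears on genes that differ between the sets, such as MGST1 and EPHX1, and was not tested. The change in Cinnamomi Cortex was 0.49 (SE 0.12, edgeR adjusted p = 0.00374). Against vehicle MGST1 in Cinnamomi Cortex at 500 µg/mL was not called (0.27, SE 0.12, edgeR adjusted p = 0.134). With a term for library set that change was 0.52 (SE 0.08, edgeR adjusted p = 3.1e-06) and was called, subject to the placement of replicate 2.

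Among the exporters ABCC2 (MRP2; ENSG00000023839, chromosome 10, 99782640 to 99852594, plus strand), which carries glucuronide and glutathione conjugates across the apical membrane, had the largest fold change of a member in Cinnamomi Cortex. Cinnamomi Cortex at 500 µg/mL had 77, 121 and 68 counts (3.52, 3.69 and 3.18 CPM), against 41, 39 and 32 counts (1.51, 1.43 and 1.41 CPM) at 20 µg/mL and 51, 29 and 22 counts (1.930, 1.232 and 1.103 CPM) in vehicle. The libraries were separate in both comparisons, and the log2 fold change was 1.26 against 20 µg/mL (SE 0.21, edgeR adjusted p = 3.55e-05) and 1.26 against vehicle (SE 0.22, edgeR adjusted p = 3.51e-05). ABCC2 was also higher at 500 than at 20 µg/mL, without overlap, in Cnidii Rhizoma (2.34 ± 0.05 against 1.43 ± 0.26 CPM), Rehmanniae Radix Preparata (2.47 ± 0.53 against 1.65 ± 0.17 CPM) and Samul-tang (2.15 ± 0.28 against 1.21 ± 0.34 CPM; SD, n = 3 each). Those log2 differences of 0.71, 0.57 and 0.81 were not called by edgeR, with adjusted p of 0.217, 0.419 and 0.185.

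ABCG2 (BCRP; ENSG00000118777, chromosome 4, 88090264 to 88231322, minus strand), an apical exporter of sulfate conjugates and of several cytotoxic drugs, rose against vehicle in 5 of 6 extracts at 500 µg/mL, by 0.19 to 0.31, of which Sagunja-tang was not called with a term for library set (0.09, adjusted p = 0.397). Samul-tang had 101.2, 99.3 and 96.3 CPM, against 82.6, 78.0 and 79.3 CPM in vehicle (log2 fold change 0.31, SE 0.05, edgeR adjusted p = 2.86e-05, and 0.20 with the term, adjusted p = 0.0188). Cnidii Rhizoma had 94.7, 99.6 and 96.3 CPM (0.28, SE 0.05, edgeR adjusted p = 0.000461). In Rehmanniae Radix Preparata the values were 97.6, 92.3 and 96.2 CPM (0.25, SE 0.05, edgeR adjusted p = 0.00326, but 0.0597 without vehicle replicate 2). All of these libraries lay above the vehicle libraries. Against its own 20 µg/mL ABCG2 was called in Cinnamomi Cortex (94.2 ± 5.1 against 82.6 ± 1.4 CPM, change 0.19, SE 0.05, adjusted p = 0.00633) and in Cnidii Rhizoma (96.9 ± 2.5 against 82.3 ± 0.4 CPM, change 0.23, SE 0.05, adjusted p = 0.00584; SD, n = 3 each, edgeR). Without replicate 2 of Cnidii Rhizoma 500 the adjusted p of that extract was 0.0685.

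ABCC3 (MRP3; ENSG00000108846, chromosome 17, 50634777 to 50692252, plus strand), a basolateral exporter of glucuronides, was lowest in vehicle of all 19 groups, at 461.8 ± 22.8 CPM (SD, n = 3), and had no call at 500 against 20 µg/mL in any extract. Vehicle has a run code of its own, and the part of that code in its low level was not tested. Against vehicle it was called in Cnidii Rhizoma at 500 µg/mL (512.1, 556.7 and 569.1 CPM, against 440.5, 458.9 and 485.9 CPM in vehicle; 0.24, SE 0.06, edgeR adjusted p = 0.0105). This call was lost in 4 of 6 fits without 1 library, those without vehicle replicate 1 or 2 and without Cnidii Rhizoma 500 replicate 2 or 3, with adjusted p up to 0.126. Samul-tang at 500 µg/mL had 497.5, 552.1 and 578.3 CPM (0.23, SE 0.06, edgeR adjusted p = 0.00338), which was 0.10 with a term for library set (adjusted p = 0.417). The same gene was called in Samul-tang at 20 and 100 µg/mL (0.20 and 0.21), and the 3 doses of the formula overlapped.

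ABCC1 (MRP1; ENSG00000103222, chromosome 16, 15949577 to 16143074, plus strand), an exporter of glutathione conjugates, was nearly level over the vehicle libraries, at 105.6, 105.9 and 105.6 CPM. In Cinnamomi Cortex at 500 µg/mL it had 112.4, 117.1 and 132.0 CPM (log2 fold change 0.19, SE 0.05, edgeR adjusted p = 0.00352), all above vehicle. Replicate 3 decided that call, since without it the change was 0.12 (adjusted p = 0.122), and with a term for library set it was 0.11 (adjusted p = 0.0613). ABCB1 (ENSG00000085563, chromosome 7, 87503633 to 87713323, minus strand), the exporter of many unconjugated drugs, was not called against vehicle or between doses. Its 13, 13 and 7 counts in Cinnamomi Cortex 500 compare with 17, 11 and 7 counts in vehicle. Astragali Radix 500, the group with the highest mean, had 23, 19 and 21 counts. In CPM these libraries lay above vehicle, without a call (0.71, SE 0.30, edgeR adjusted p = 0.165).

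**Figure D2:**
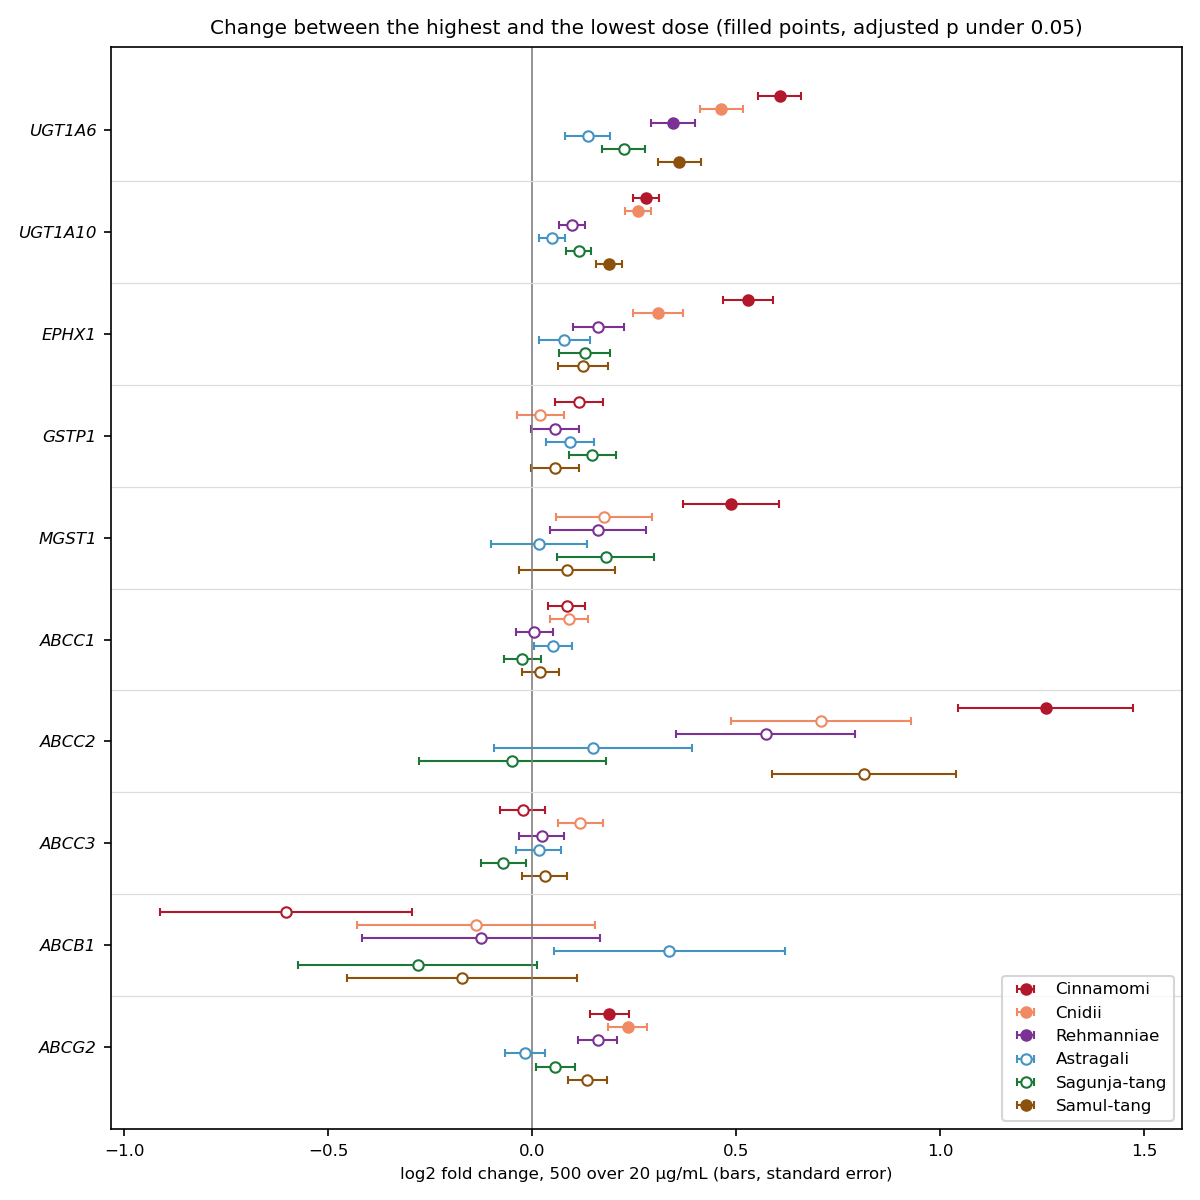
Log2 fold change at 500 against 20 µg/mL of the 10 genes in the 6 extracts with 3 libraries per dose, with standard errors; filled points are called at adjusted p under 0.05. UGT1A6 is called in 4 extracts, and Cinnamomi Cortex has the largest ABCC2 change, 1.26.

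Within extracts, then, 500 against 20 µg/mL gave 13 calls among 60 tests of a member, all of them higher. By edgeR 0 were lower, as they were by DESeq2 and with unadjusted p-values under 0.05. Cinnamomi Cortex had 6 of 10 members higher, where 4.6% of all 16356 genes tested were higher. Cnidii Rhizoma had 4 (0.251% of all genes), Samul-tang 2 (0.11%) and Rehmanniae Radix Preparata 1 (0.11%). Astragali Radix had 0 of 10 (0.0183% of all genes), with 0 by DESeq2 and 1 member at an unadjusted p under 0.05. Sagunja-tang also had 0 of 10 (0.00611% of all genes), with 2 by DESeq2 and 4 members at an unadjusted p under 0.05. The median log2 change over the 10 members was 0.23 in Cinnamomi Cortex, 0.20 in Cnidii Rhizoma, 0.13 in Rehmanniae Radix Preparata, 0.10 in Samul-tang, 0.08 in Sagunja-tang and 0.06 in Astragali Radix, where the median of all genes lay between -0.00201 and 0.00146.

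Against vehicle, 500 µg/mL gave 20 calls in 60, all higher, with 0 lower by edgeR, by DESeq2 or with unadjusted p-values under 0.05. MGST1 lay below every vehicle library in Sagunja-tang (-0.24, edgeR adjusted p = 0.151) and Samul-tang (-0.19, adjusted p = 0.264), without a call. With a term for library set these changes were 0.14 and 0.19, not called either. Cinnamomi Cortex had 6 members (6.22% of all genes higher), Cnidii Rhizoma 5 (0.734%), Samul-tang 4 (10.2%), Sagunja-tang 3 (11.7%), Rehmanniae Radix Preparata 2 (0.404%) and Astragali Radix 0 (2.12%; 2 members at an unadjusted p under 0.05, 0 by DESeq2). All 6 comparisons share the 3 vehicle libraries, whose run code no extract has. With a term for library set there were 18 calls at 500 µg/mL, not all of them among the 20. UGT1A6 stayed called in both formulae with it, at 0.41 in Samul-tang (edgeR adjusted p = 6.63e-05) and 0.27 in Sagunja-tang (adjusted p = 0.0105). Lost with the term were UGT1A10 and ABCG2 in Sagunja-tang, ABCC1 in Cinnamomi Cortex (edgeR adjusted p = 0.0613) and ABCC3 in Samul-tang (adjusted p = 0.417). Newly called were MGST1 in Cinnamomi Cortex (0.52, edgeR adjusted p = 3.1e-06) and ABCC3 in Rehmanniae Radix Preparata (0.19, adjusted p = 0.0184).

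**Figure D3:**
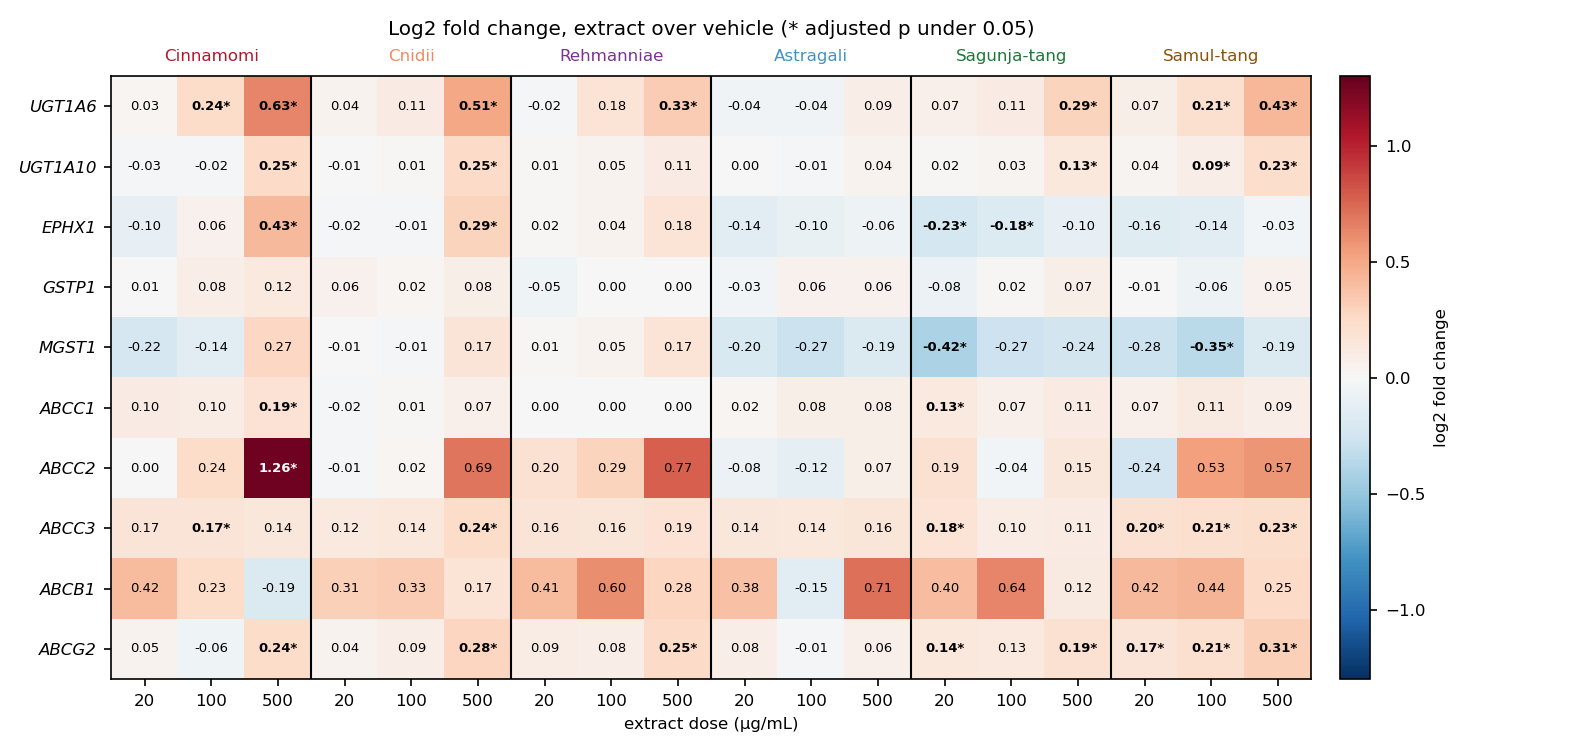
Log2 fold change against vehicle of the 10 genes (rows) for 6 extracts at 20, 100 and 500 µg/mL (columns), by colour and printed value, with calls at adjusted p under 0.05 marked. The 20 calls at 500 µg/mL are all higher, and Astragali Radix has none at any dose.

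At 100 µg/mL there were 8 calls in 60 against vehicle, and at 20 µg/mL 7. Those at 100 µg/mL were UGT1A6 (0.24) and ABCC3 (0.17) in Cinnamomi Cortex (8.08% of all genes called in either direction), EPHX1 (-0.18) in Sagunja-tang (16.6%), and UGT1A6 (0.21), UGT1A10 (0.09), ABCC3 (0.21), ABCG2 (0.21) and MGST1 (-0.35) in Samul-tang (21.9%). The 7 at 20 µg/mL were EPHX1 (-0.23), MGST1 (-0.42), ABCC1 (0.13), ABCC3 (0.18) and ABCG2 (0.14) in Sagunja-tang (18.5%) and ABCC3 (0.20) and ABCG2 (0.17) in Samul-tang (11%). The other extracts had 0 members called by edgeR and 0 by DESeq2, and 1 or 2 members each with unadjusted p-values under 0.05. Of all genes, 0.147% were called in Cnidii Rhizoma, 0.208% in Rehmanniae Radix Preparata and 2.51% in Astragali Radix at 100 µg/mL. At 20 µg/mL the shares were 1.71% in Cinnamomi Cortex, 0.293% in Cnidii Rhizoma, 0.434% in Rehmanniae Radix Preparata and 1.39% in Astragali Radix. With a term for library set 1 remained called at 100 µg/mL, UGT1A6 in Cinnamomi Cortex (0.23, adjusted p = 0.0323), and 0 at 20 µg/mL. Without vehicle replicate 2 there were 2 calls at each of these doses, against 8 and 7 with it. ABCC3 and ABCG2 in Samul-tang at 100 µg/mL held in all 6 fits without 1 library, and each of the other calls at these doses was lost in 1 to 5 of 6.

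Extracts with the same run code can be compared without vehicle. Cinnamomi Cortex against Astragali Radix at 500 µg/mL had 6 members higher (4.97% of all genes higher) and 1 lower (5.83% lower). UGT1A6 was at 74.4 ± 4.1 in Cinnamomi Cortex and 51.1 ± 3.0 CPM in Astragali Radix (log2 difference 0.54, SE 0.05, edgeR adjusted p = 1.12e-10), and EPHX1 at 164.3 ± 9.9 and 117.0 ± 4.6 CPM (0.49, SE 0.06, edgeR adjusted p = 7.65e-08; SD, n = 3 each). UGT1A10 (0.21), ABCC2 (1.19), ABCG2 (0.17) and MGST1 (0.45) were the other higher members, of which ABCG2 lost the call without Astragali Radix 500 replicate 1 or Cinnamomi Cortex 500 replicate 2 or 3 (adjusted p up to 0.0849), and MGST1 without Cinnamomi Cortex 500 replicate 1 or Astragali Radix 500 replicate 2 or 3 (up to 0.074). ABCB1 was the lower one, with 13, 13 and 7 counts in Cinnamomi Cortex and 23, 19 and 21 counts in Astragali Radix (-0.90, SE 0.30, edgeR adjusted p = 0.0424). It kept the call in 1 of 6 fits without 1 library, that without Cinnamomi Cortex 500 replicate 1 (adjusted p up to 0.163 in the others), and DESeq2 gave it no adjusted p. Cnidii Rhizoma against Rehmanniae Radix Preparata at 500 µg/mL had 1 member higher (0.0367% of all genes), UGT1A10 at 448.0 ± 7.2 and 405.8 ± 17.0 CPM (0.14, SE 0.03, edgeR adjusted p = 0.0339; SD, n = 3 each), which was kept in 1 of 6 such fits, that without Rehmanniae Radix Preparata 500 replicate 1 (adjusted p up to 0.654 in the others). Sagunja-tang against Samul-tang had 0 calls (0.318% of all genes in either direction), with 0 by DESeq2 and 4 members lower at an unadjusted p under 0.05. For UGT1A6 that difference was -0.14 (SE 0.05, edgeR adjusted p = 0.84), and a p above the threshold does not show that the formulae act alike.

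The dose change itself was larger in Cinnamomi Cortex than in Astragali Radix for 3 members (1.12% of all genes). The difference between the log2 changes at 500 against 20 µg/mL was 0.47 for UGT1A6 (SE 0.08, edgeR adjusted p = 4e-05), 0.23 for UGT1A10 (SE 0.04, adjusted p = 0.000763) and 0.45 for EPHX1 (SE 0.09, adjusted p = 0.000817). For ABCC2 it was 1.11 (SE 0.33, edgeR adjusted p = 0.0532) and was not called. Without the filter on low counts the UGT1A10 difference lost its call (edgeR adjusted p = 0.0827). The other 5 pairs of extracts gave 0 member calls each by edgeR and by DESeq2, and 1 member each with an unadjusted p under 0.05. Among them EPHX1 had a difference of 0.22 (SE 0.09, edgeR adjusted p = 0.226) for Cinnamomi Cortex minus Cnidii Rhizoma, where 2.27% of all genes were called. For Cnidii Rhizoma minus Rehmanniae Radix Preparata (0.0122% of all genes) UGT1A10 had 0.16 (SE 0.04, edgeR adjusted p = 0.803). Samul-tang was also set against plants it traditionally contains, with 0% of all genes called against Cnidii Rhizoma and 0.00611% against Rehmanniae Radix Preparata. Sagunja-tang minus Samul-tang had 0% of all genes called. At 100 µg/mL UGT1A6 was the 1 member higher in Cinnamomi Cortex than in Astragali Radix (0.28, SE 0.05, edgeR adjusted p = 0.03, kept in 1 of 6 fits without 1 library, that without Astragali Radix 100 replicate 1), where 0.0367% of all genes were higher. Cnidii Rhizoma against Rehmanniae Radix Preparata and Sagunja-tang against Samul-tang at 100 µg/mL had 0 members called by edgeR and by DESeq2 (0% and 0.251% of all genes), with 0 and 1 at an unadjusted p under 0.05. At 20 µg/mL the 3 pairs had 0 members called by either tool and 0 at an unadjusted p under 0.05 (0%, 0% and 0.238% of all genes).

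Paeoniae Radix, with 1 library per dose and therefore no test, had UGT1A6 at 56.2 CPM at 20, 52.8 CPM at 100 and 59.4 CPM at 500 µg/mL, all above the vehicle range of 44.6 to 49.99 CPM. UGT1A10 stood at 393.2, 383.7 and 429.1 CPM at those doses, against 365.4 to 392.7 CPM in vehicle. EPHX1 had 88.8, 116.7 and 123.3 CPM, and its value at 20 µg/mL was the lowest of all 60 libraries. ABCG2 was at 96.1, 89.7 and 94.5 CPM, ABCC2 at 1.71, 1.91 and 2.13 CPM, and ABCC3 at 467.7, 522.9 and 543.8 CPM.

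Other genes of the same systems were counted in the same way. At 500 against 20 µg/mL of Cinnamomi Cortex, 1 of 10 other glucuronosyltransferases tested rose, UGT1A1 (0.16), and 0 fell, with a median of 0.17 over the list. UGT1A1, which conjugates bilirubin, also rose in Cnidii Rhizoma (0.40, SE 0.05, 58.8 ± 1.8 against 44.6 ± 2.5 CPM) and Samul-tang (0.35, SE 0.05, 51.3 ± 1.7 against 40.3 ± 0.9 CPM; SD, n = 3 each). It is among the 9 UGT1A genes summed above, so its values also rest on the division of shared reads. UGDH, which makes the glucuronic acid donor, rose in Cinnamomi Cortex (0.35, SE 0.06), as 1 of 5 genes of donor supply. Of 9 other glutathione transferases GSTA4 rose (0.38), of 8 sulfotransferases and donor genes SULT2B1 rose (0.36), and of 10 other ABC exporters 0 rose and ABCA1 fell (-0.59). Among 12 organic anion and cation carriers 3 rose, with SLCO4A1 (0.34) and SLC22A3 (0.31) the largest, and SLC22A5, the carnitine carrier, fell (-0.30). Of 6 other conjugation enzymes 0 were called. The medians over these lists were 0.00 for donor supply, 0.10 for glutathione transferases, -0.10 for sulfotransferases, -0.17 for ABC exporters and 0.18 for carriers, beside -0.000147 for all genes. Colon epithelium markers moved in the same comparison, 3 of 10 rising (KRT20 0.58, CEACAM5 0.67 and EPCAM 0.11), and their part in the members' changes was not tested.

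The 12 NRF2 readouts outside the members include NQO1, a quinone reductase, which had 593.4, 609.1 and 651.0 CPM in Cinnamomi Cortex at 500 µg/mL, against 461.2, 460.9 and 445.4 CPM at 20 µg/mL (log2 fold change 0.44, SE 0.05, edgeR adjusted p = 1.04e-08). All 12 rose at 500 against 20 µg/mL in Cinnamomi Cortex (median 0.58) and in Cnidii Rhizoma (median 0.42), 8 in Samul-tang, 6 in Rehmanniae Radix Preparata, 1 in Astragali Radix (AKR1B10) and 0 in Sagunja-tang. Of 5 AhR readouts tested ALDH3A1 rose in Cinnamomi Cortex (0.74), Cnidii Rhizoma (0.71), Samul-tang (0.60) and Rehmanniae Radix Preparata (0.56), and CYP1B1 fell in Cinnamomi Cortex (-0.39). CYP1A1, the classical AhR readout, was not called. Cinnamomi Cortex 500 had 0.183, 0.457 and 0.327 CPM, from 4, 15 and 7 counts. These libraries lay below the 0.515, 0.845 and 0.703 CPM of Cinnamomi Cortex 20. Vehicle had 5.75, 0.595 and 1.103 CPM, where replicate 1 stood apart. VDR was the 1 of 17 transcriptional regulators called in Cinnamomi Cortex (0.17).

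**Figure D4:**
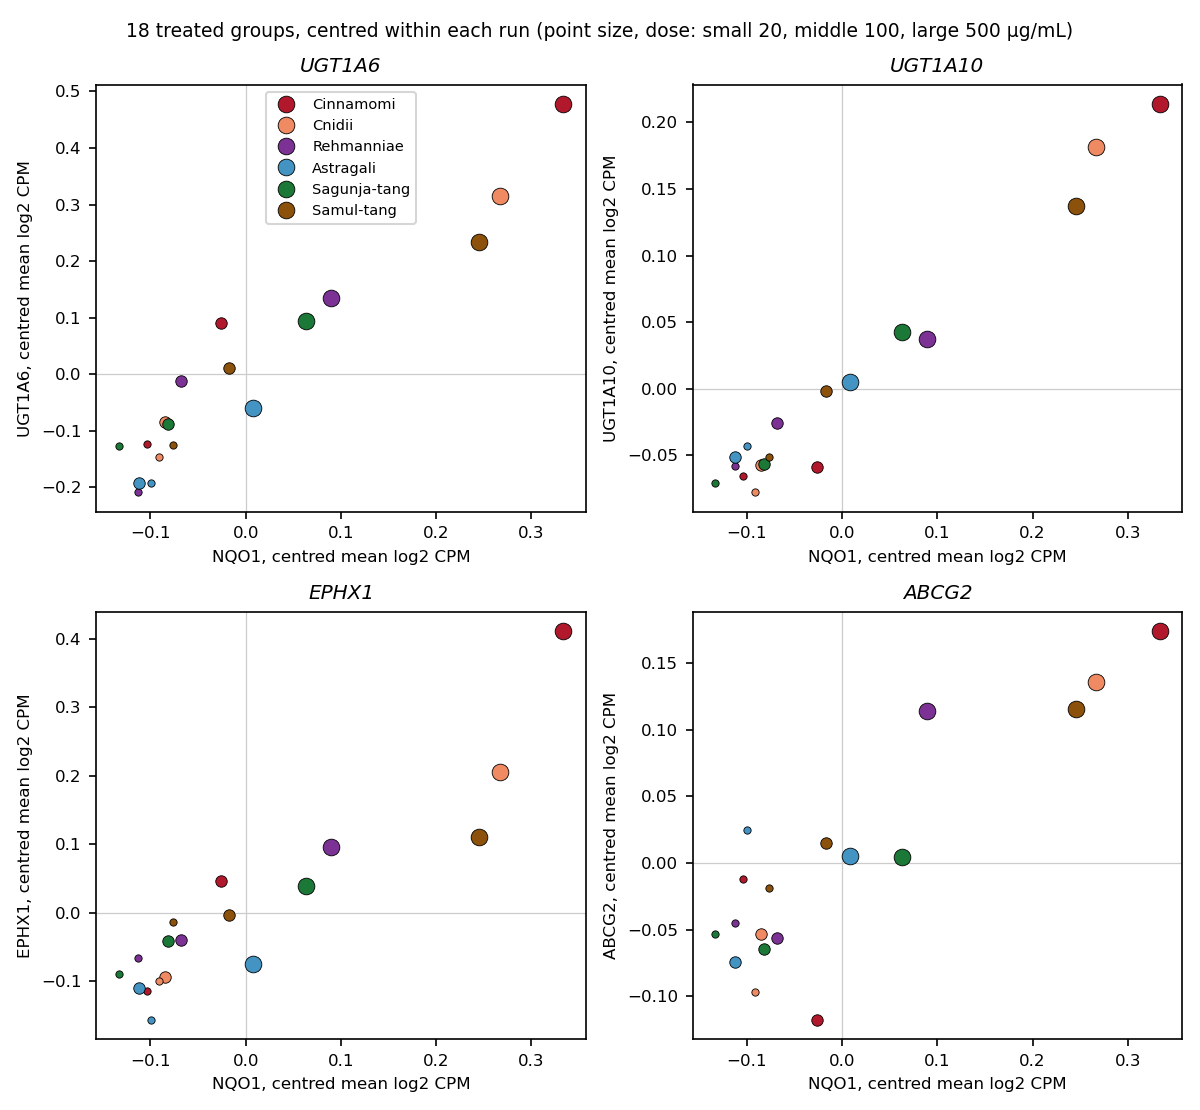
Group means of log2 CPM, centred within each run, of UGT1A6, UGT1A10, EPHX1 and ABCG2 (vertical axes) against NQO1 (horizontal axes) over the 18 treated groups; colour is the extract and point size the dose. Cinnamomi Cortex 500 is at the upper right in all 4 panels, with r of 0.98 for UGT1A10.

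Over the 18 treated groups, as means centred within run, the gene most like UGT1A10 was NQO1 (r = 0.98), the gene most like UGT1A6 was SERPINB5 (0.98), followed by GCLC (0.97), and the gene most like EPHX1 and MGST1 was GPX2 (0.98 and 0.96). ABCG2 was most like GCLM (0.92) and SLC7A11 (0.92), and ABCC2 most like PITRM1 and ME1 (both 0.94). Highest for ABCC1 was FLNA (0.91), for GSTP1 MRPL11 (0.95), for ABCB1 TFDP2 (0.82) and for ABCC3 NANOS1 (0.76). Values with NQO1 were 0.96 for UGT1A6, 0.92 for EPHX1, 0.87 for ABCG2 and MGST1, 0.85 for ABCC2, 0.42 for ABCC3 and -0.49 for ABCB1. These are descriptions over 18 points that share libraries, doses and, for 3 groups each, an extract, and in which Cinnamomi Cortex 500 has the highest NQO1 and the highest UGT1A6, UGT1A10, EPHX1, ABCC2, ABCG2 and MGST1.

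Promoter windows of RefSeq (GRCh38.p14, 250 bases before to 50 after a start site) were given for 7 of the 10 members, with 17 windows, and were searched on both strands for the antioxidant response element core TGACNNNGC, which NRF2 is known to bind in a longer context. It was found in 5 of the 17 windows, 1 for each of 5 genes, and in 13.3% of all 35116 windows. The windows of ABCC2 and ABCB1 did not hold it, and ABCC2 had the largest fold change of a member in Cinnamomi Cortex. GSTP1, with a match, was called in 0 of 39 comparisons by edgeR. The matches are shown because NRF2 readouts rose in comparisons in which members also rose, each with 10 bases on either side in the direction of the gene and the core in capitals.
EPHX1: tgagattggcTGACTTGGCaggactgtgc
UGT1A6: aggtgaaagcTGACACGGCcatagttggt
ABCG2: gcagcgcttgTGACTGGGCaacctgtgcg
GSTP1: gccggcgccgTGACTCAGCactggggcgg
MGST1: ggggacatcgTGACAAAGCaaattgtctg
These windows are chr1:225825266-225825294 for EPHX1, chr2:233692782-233692810 for UGT1A6, chr11:67583736-67583764 for GSTP1 and chr12:16347135-16347163 for MGST1, all on the plus strand, and chr4:88159271-88159299 for ABCG2 on the minus strand. Counted from a start site, the core lay at -78 in EPHX1, -98 in UGT1A6, -66 in GSTP1, 2 in ABCG2 and 31 in MGST1. The AhR core GCGTG was in 6 of the 17 windows, for EPHX1, UGT1A6, ABCG2 and ABCB1, and in 36.5% of all windows. A match is a string of letters and not a site. UGT1A10, ABCC1 and ABCC3 were not in the table.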

How the data were processed

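RNA of HT29 cells was read with a directional kit in pairs of 100 bases, per the labels' protocols. The deposited values are expected counts per gene, which the authors made with FastQC 0.11.9, Trim Galore 0.6.5, STAR 2.7.3a and RSEM 1.3.3 on GRCh38, per the submitters' processing notes. In the sources used here the strand setting and annotation release are not given. Of 273 value columns 60 belong to the samples analysed, and 213 were not used. RSEM divides reads that fit several genes, so 8.8% of values were not whole. They were rounded. Symbols came from a gene name table for 56558 identifiers and from GENCODE 29 for 497, and 3620 had none.

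The 57 libraries of the 19 replicated groups entered 1 fit (R 4.3.3, edgeR 4.0.16, TMM factors 0.938 to 1.04, filterByExpr with a minimum count of 10, quasi-likelihood test). It held 16356 genes and 39 comparisons, each adjusted by Benjamini-Hochberg over all genes and called at adjusted p under 0.05. The script was tested on simulated counts. CPM used TMM-scaled library sizes, and the SE was the log2 fold change divided by the root of F. Paeoniae Radix stayed out of the fit. Replicates correlated at 0.993 to 0.997 (log2 CPM). Library totals of 20459346 to 36253747 counts leave members under 1 CPM with few counts, and no value here covers more than these libraries.

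The members were given by symbol, and the members, gene lists and rules for naming genes were chosen with earlier results of these data known. All 10 members were named, of each other list at most 3 called genes with the largest change per comparison, and NQO1 and CYP1A1 whatever their values. The 3 genes of highest Pearson r with a member over 18 treated group means, centred within the run code of the sample codes, were ranked among genes with a mean log2 CPM of at least 1. Replicate numbers did not pair libraries in 18 of 18 comparisons with vehicle (r between -0.25 and 0.217), and paired them in 1 of 6 comparisons of 500 against 20 µg/mL, that of Astragali Radix, and in Cinnamomi Cortex against Astragali Radix at 100 µg/mL. Alternatives were RLE factors, DESeq2 1.42.0, no filter on low counts, a term for library set (a division that the labels do not name, taken from how libraries separated in earlier results of these data), a replicate block, also nested in run, and leaving out each library. The summed UGT1A feature and fits of a single library set were added after seeing the data.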

Additional observations from a re-analysis of the deposited data

Results flagged for a closer look

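The change at 500 against 20 µg/mL differed between Cinnamomi Cortex and Astragali Radix by an interaction test over all genes for 3 members. The difference was 0.471 on the log2 scale for UGT1A6, 0.2308 for UGT1A10 and 0.4501 for EPHX1, with edgeR adjusted p of 4e-05, 0.000763 and 0.000817. All 3 kept the call in each of 12 fits without 1 library of either extract. Without the filter on low counts UGT1A6 and EPHX1 kept it and UGT1A10 lost it (edgeR adjusted p = 0.0827).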

How the results depend on the processing

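Direction and call were the same with RLE factors in 389 of the 390 values of single members (1 weaker), with DESeq2 in 340 of those it gave an adjusted p (9 stronger), without the filter in 365 (16 stronger, 9 weaker) and with the term for library set in 343 (7 stronger, 17 weaker, 22 moved). MGST1 in Samul-tang 100 against vehicle turned to 0.0265 with the term for library set, against -0.35 without it; the cause was not tested. Counts of members called at 500 µg/mL against vehicle moved for Rehmanniae Radix Preparata to 4 without the filter, 4 with the replicate block and 4 with DESeq2 (main 2), for Astragali Radix to 1 without the filter and 1 with the block (main 0), and for Sagunja-tang to 1 with the term (main 3). At 500 against 20 µg/mL Rehmanniae Radix Preparata had 2 with the block nested in run (main 1), and Sagunja-tang 1 with the term, 1 with the nested block and 2 with DESeq2 (main 0). Cnidii Rhizoma against Rehmanniae Radix Preparata had 0 without the filter and 0 in library set 1 alone (main 1). Against vehicle there were 1 call with the term and 14 with the block at 100 µg/mL (main 8), and 0 with the term at 20 µg/mL (main 7). Differences in dose change numbered 5 without the filter, 6 with the term, 5 with the block and 5 with DESeq2 (main 3). The replicate block changed no other of these counts by over 1.5 times. Leaving out 1 library gave 3 to 5 members for Cnidii Rhizoma 500 against vehicle, 1 to 3 for Rehmanniae Radix Preparata, 0 to 1 for Astragali Radix and 4 to 5 for Samul-tang. It gave 3 to 4 for Cnidii Rhizoma 500 against 20 µg/mL, 5 to 7 for Cinnamomi Cortex against Astragali Radix, 0 to 1 for Cnidii Rhizoma against Rehmanniae Radix Preparata, 2 to 10 at 100 and 2 to 9 at 20 µg/mL against vehicle, 0 to 1 between extracts at 100 and 20 µg/mL and 3 to 5 for dose changes. In the summed counts a comparison without the library left out kept its main calls. Both lows against vehicle came without vehicle replicate 2. Counts over all genes at 500 µg/mL against vehicle with the term for library set were 346 for Sagunja-tang (main 3303), 199 for Samul-tang (3029), 135 for Astragali Radix (585), 204 for Rehmanniae Radix Preparata (104) and 422 for Cnidii Rhizoma (242). Without the filter they were 1223 for Astragali Radix, 265 for Rehmanniae Radix Preparata and 366 for Cnidii Rhizoma, and with the block 951, 176 and 404. Leaving out 1 library gave as few as 129 for Astragali Radix (without its replicate 3) and as many as 1232 (without its replicate 1), and as few as 29 for Rehmanniae Radix Preparata (without vehicle replicate 2), 92 for Cnidii Rhizoma and 1128 for Cinnamomi Cortex (main 2113; each without its replicate 3), and 1364 for Sagunja-tang and 1126 for Samul-tang (without vehicle replicate 3). At 500 against 20 µg/mL all-gene counts without the filter were 150 for Cnidii Rhizoma (main 70), 204 for Rehmanniae Radix Preparata (29), 72 for Astragali Radix (12), 213 for Sagunja-tang (1) and 138 for Samul-tang (23). In the same order they were 121, 60, 22, 27 and 55 with the block and 184, 127, 36, 86 and 91 with the block nested in run, which gave 2728 for Cinnamomi Cortex (main 1670). For Rehmanniae Radix Preparata, Astragali Radix, Sagunja-tang and Samul-tang they were 60, 23, 36 and 51 with the term and 54, 19, 42 and 41 with DESeq2, and Sagunja-tang had 13 in library set 2 alone. Leaving out 1 library gave as few as 972 for Cinnamomi Cortex (without 20 µg/mL replicate 3), 34 for Cnidii Rhizoma, 12 for Rehmanniae Radix Preparata, 0 for Astragali Radix and 13 for Samul-tang (without 500 µg/mL replicates 3, 2, 3 and 1 of each in that order), and 0 to 53 for Sagunja-tang (without 500 µg/mL replicate 1 and 20 µg/mL replicate 2). Between extracts at 500 µg/mL, Cinnamomi Cortex against Astragali Radix had 2732 with the nested block (main 1767) and as few as 1052 without Astragali Radix replicate 3. Cnidii Rhizoma against Rehmanniae Radix Preparata (main 24) had 147 without the filter, 47 with the block, 79 with the nested block and as few as 3 without Cnidii Rhizoma replicate 3, and Sagunja-tang against Samul-tang (main 52) had 117 without the filter. Summed over the 6 extracts against vehicle, the term gave 668 at 100 µg/mL (main 8084) and 439 at 20 µg/mL (main 5448), and leaving out vehicle replicate 3 gave 3563 and 2262. Over all genes, calls between extracts at 100 and 20 µg/mL numbered 637 without the filter (main 91), and differences in dose change numbered 1403 without the filter and 1245 with the term (main 794).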
